A study of Mus musculus with 15 samples.

Results

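Livers of mice fed a ketogenic diet were compared with livers of mice fed a high-fat diet, both eaten for 3 days. The comparison rests on the 5 libraries titled KD and the 5 titled HFD, which are 10 of the 15 RNA-sequencing libraries of the series. The mice were C57BL/6, a common inbred strain, and were 12 weeks old when given either diet. The other 5 libraries came from C57BL/6 livers on chow, for which the labels give no age, and their levels are stated as description only. The sources used here do not give sex, what the diets were made of or how much was eaten. No label says that each library is a separate animal, so p-values measure the spread between these samples. Higher and lower always refer to the ketogenic livers relative to the high-fat livers.

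Ketogenic and high-fat diets both raise the supply of fat to the liver, but a ketogenic diet withholds carbohydrate almost completely. With little carbohydrate the liver oxidises fatty acids to acetyl-CoA and turns part of it into ketone bodies for export. The nuclear receptor PPARalpha, which binds fatty acids, switches on the genes of this pathway, whereas insulin and sugar act through SREBP-1c and ChREBP (encoded by Srebf1 and Mlxipl) to switch on the synthesis of fatty acids.

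The ketogenic libraries held 34707597 to 50914494 estimated reads, the high-fat libraries 30121672 to 44764257 and the chow libraries 30190806 to 43688344. Of 13967 genes tested, 3644 differed between the diets (26.1%), 1826 of them higher (13.1%) and 1818 lower (13.0%). Most changes were small, since 2588 of the 3644 were under 1.5-fold, while 213 genes were at least 2-fold higher and 185 at least 2-fold lower. For 2379 genes (17.0%) all 5 values of one diet lay above all 5 of the other. The 12 largest rises and 12 largest falls named below were chosen among such genes, so their lack of overlap was fixed by the choice. Adjusted p-values are from edgeR's quasi-likelihood test with Benjamini-Hochberg adjustment over the 13967 genes, with a threshold of 0.05, and fold changes are log2 ± SE. The median log2 fold change of all genes was -0.02. The split between higher and lower depended on scaling: with total counts in place of TMM factors, 2305 genes were higher and 960 lower, so that 70.6% of the calls were higher against 50.1%. The labels name no batch, and their numbers run in blocks by diet, so anything that followed those numbers cannot be told apart from diet. Levels are TMM-normalised CPM (counts scaled to a common library size), listed for ketogenic libraries 2, 3, 4, 6 and 8 and high-fat libraries 9, 10, 11, 12 and 14, in that order.

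**Figure D1:**
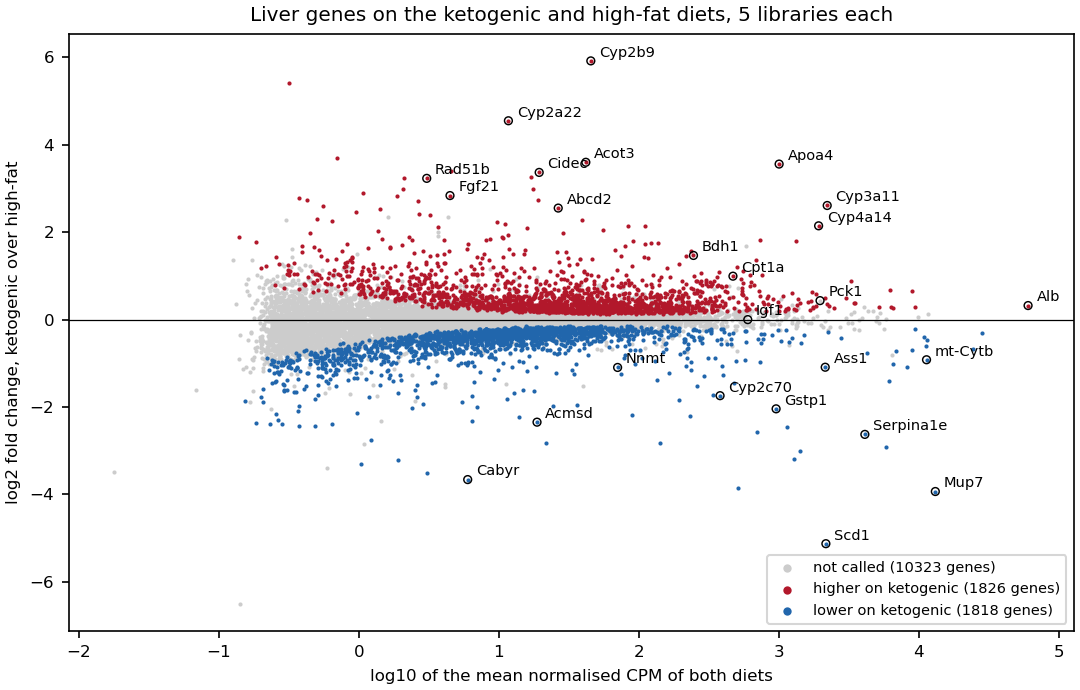
Each point is 1 of the 13967 tested genes, with the log10 of its mean normalised CPM on the horizontal axis and the log2 fold change of ketogenic over high-fat on the vertical axis. The 1826 higher and 1818 lower genes are coloured, and 25 named genes are ringed, from Cyp2b9 at 5.92 to Scd1 at -5.13.

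The genes of fatty acid oxidation and ketone body production were higher on the ketogenic diet. Of 30 oxidation genes 29 rose and none fell, with a median log2 fold change of 0.71, and of 10 genes for ketone bodies and their transport 7 rose and none fell, with a median of 0.76. With only the ketogenic and high-fat libraries in the fit, 1 of these 10 was called lower. Bdh1, the mitochondrial enzyme that turns acetoacetate into beta-hydroxybutyrate (ENSMUSG00000046598.15, chr16:31422280-31458901, plus strand), stood at 438, 344, 369.9, 299 and 354 CPM on the ketogenic diet and at 141, 133, 126, 139 and 113 CPM on the high-fat diet. The lowest ketogenic level was above the highest high-fat level, and the chow libraries lay within the high-fat range, at 125 to 141 CPM. That difference exceeded the spread between libraries (log2 fold change 1.47 ± 0.09, adjusted p = 7.06e-09). The monocarboxylate transporter Slc16a7, which carries ketone bodies and pyruvate across membranes, stood at 152, 164, 169, 141 and 165 CPM against 57.6, 56.9, 53.0, 68.4 and 57.7 CPM (log2 fold change 1.43 ± 0.09, adjusted p = 8.01e-09). The 3 members that did not pass were Oxct1, the enzyme that burns ketone bodies outside the liver, at 2.82 ± 0.512 against 3.30 ± 0.481 CPM (mean ± SD, n = 5 each), the acetyl-CoA synthetase Acss2 at 108 ± 14.3 against 158 ± 45.2 CPM, and the mitochondrial deacetylase Sirt3 at 63.6 ± 3.33 against 60.5 ± 2.44 CPM.

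The oxidation genes that rose ran from entry into the mitochondrion to the last thiolysis, and peroxisomal enzymes rose with them. Cpt1a, which loads long-chain fatty acids onto carnitine at the outer mitochondrial membrane, stood at 667, 634, 678, 602 and 548 CPM against 286, 282, 321, 385 and 299 CPM (log2 fold change 0.99 ± 0.09, adjusted p = 5.41e-07). Chow livers had less than either diet, 156 to 199 CPM. Acadm, the medium-chain acyl-CoA dehydrogenase, stood at 778, 873, 698, 683 and 751 CPM against 334, 344, 333, 371 and 356 CPM (log2 fold change 1.12 ± 0.07, adjusted p = 1.85e-08), and the long-chain enzyme Acadl rose by 0.89 ± 0.06 (adjusted p = 2.13e-08). The 2 diets did not overlap for Cpt1a, Acadm or Acadl. On the peroxisomal side, Pex11a, which promotes the division of peroxisomes, rose by 1.57 ± 0.11, and Abcd2, a transporter of very-long-chain acyl-CoA into peroxisomes, by 2.55 ± 0.21 (adjusted p = 2.86e-08 and 2.16e-06). Abcd2 stood at 55.4, 49.0, 41.9, 36.2 and 44.3 CPM against 7.36, 4.78, 5.77, 11.5 and 9.47 CPM, with no overlap. Among 19 genes that build peroxisomes, Pex11a included, 6 rose and 1 fell, the transporter Slc25a17 at -0.32 ± 0.08 (adjusted p = 0.00839).

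Other targets of PPARalpha also rose: 22 of 25 were higher and none lower, with a median log2 fold change of 1.39. Cyp4a14, an omega-hydroxylase of fatty acids and a sensitive reporter of PPARalpha, stood at 3408, 4010, 2849, 2626 and 2802 CPM against 447, 328, 440.5, 1128 and 1202 CPM (log2 fold change 2.15 ± 0.39, adjusted p = 0.0016). High-fat libraries 12 and 14 were more than 2-fold above the other high-fat libraries, and all 5 stayed below every ketogenic library. Fgf21, a hormone that the liver secretes during fasting and ketosis, stood at 8.85, 6.61, 14.4, 6.38 and 3.00 CPM against 0.455, 0.601, 0.693, 1.41 and 2.39 CPM (log2 fold change 2.84 ± 0.54, adjusted p = 0.00228). The lowest ketogenic library, 8, was close to the highest high-fat library, 14. The acyl-CoA thioesterases Acot2 and Acot3, which release free fatty acids from acyl-CoA in mitochondria and peroxisomes, rose by 2.73 ± 0.28 and 3.60 ± 0.43 (adjusted p = 1.96e-05 and 8.12e-05), and the carnitine transporter Slc22a5 and the fatty acid binding protein Fabp2 by 1.39 ± 0.11 and 1.17 ± 0.09. Pdk4, the kinase that blocks the use of pyruvate, stood at 28.7, 21.3, 33.4, 18.0 and 14.6 CPM against 10.2, 9.34, 3.83, 9.74 and 5.69 CPM (log2 fold change 1.59 ± 0.34, adjusted p = 0.00475). In that gene the high-fat livers stood apart from chow, which ranged over 13.8 to 33.5 CPM like the ketogenic livers. Ppara itself was among the genes that rose, by 0.78 ± 0.12 (adjusted p = 1.43e-04).

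Fabp1, the abundant liver fatty acid binding protein, rose by 0.39 ± 0.11 (adjusted p = 0.0135), and its promoter holds the direct repeat to which PPARalpha and its partner RXR bind. The search was for 2 copies of AGGNCA with 1 base between them, on both strands of RefSeq promoters (build GRCm38.p6), and found it in 0.381% of 32851 promoters. Not every called gene of the lipid lists had a promoter to search. Those searched included 24 of the 29 higher oxidation genes, 2 of the 7 ketone body genes and 17 of the 22 PPARalpha targets. Of the 6 lower synthesis genes 5 were searched. None of the 25 oxidation promoters held the repeat. Among the genes searched it was found in Fabp1 and in Elovl1, an elongase of very-long-chain fatty acids that fell (log2 fold change -0.40 ± 0.09, adjusted p = 0.00405). The 250 bases before each start are shown because the genes moved in opposite directions while both carry the repeat, in capitals, read on the opposite strand. The windows are chr6:71199629-71199878 (plus strand) for Fabp1 and chr4:118429451-118429700 (plus strand) for Elovl1.
Fabp1: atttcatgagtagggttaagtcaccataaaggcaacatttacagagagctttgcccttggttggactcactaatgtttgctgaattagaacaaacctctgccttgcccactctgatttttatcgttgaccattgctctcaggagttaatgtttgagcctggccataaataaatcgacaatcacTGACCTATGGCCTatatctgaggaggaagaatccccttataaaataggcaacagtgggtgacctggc
Elovl1: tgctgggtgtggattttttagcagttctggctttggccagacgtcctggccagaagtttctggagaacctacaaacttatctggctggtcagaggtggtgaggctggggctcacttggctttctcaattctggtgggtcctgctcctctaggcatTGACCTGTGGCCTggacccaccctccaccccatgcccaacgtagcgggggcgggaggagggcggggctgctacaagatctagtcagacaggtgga
The match begins at base -67 from the start of Fabp1 and at base -95 from the Elovl1 start shown. Another Elovl1 promoter, chr4:118427843-118428142 (plus strand), held no match, and which start the liver uses was not tested. A match is a description of the letters in this window, and binding was not measured.

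Of 19 genes of lipid droplets and lipolysis 11 were higher and 1 lower, with a median of 0.31. The number lower was 2 without high-fat library 10 or 14, with length-scaled counts, with the 1 CPM filter and with only the ketogenic and high-fat libraries in the fit. Cidec, which fuses lipid droplets into larger ones, stood at 37.6, 37.2, 49.3, 26.7 and 26.4 CPM against 2.19, 1.71, 5.68, 5.25 and 2.15 CPM (log2 fold change 3.37 ± 0.37, adjusted p = 3.49e-05), and at 0.972 to 2.83 CPM on chow. The lowest ketogenic library was above 4-fold the highest high-fat library. The droplet coat proteins Plin2 and Plin5 rose by 1.20 ± 0.14 and 1.15 ± 0.10 (adjusted p = 1.65e-05 and 3.02e-07). Plin2 stood at 767, 869, 708, 682 and 487 CPM against 398, 296, 255, 289.6 and 294 CPM, with no overlap. The lipases Lipa, Lipc and Pnpla2 were among those that rose, by 0.64 ± 0.08, 0.31 ± 0.08 and 0.30 ± 0.08. Mgll, the lipase of monoglycerides, which was counted with the PPARalpha targets, rose by 1.07 ± 0.10. The 1 member that fell was Pnpla3, a droplet lipase homologue under SREBP-1c control, at 0.0472, 0.0510, 0.164, 0.0795 and 0.122 CPM against 0.569, 0.300, 0.393, 0.545 and 0.303 CPM (log2 fold change -2.17 ± 0.48, adjusted p = 0.00323), and chow livers had 2.15 to 7.16 CPM. Both fat-rich diets were therefore below chow for Pnpla3, and the ketogenic diet was the lower of the 2.

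**Figure D2:**
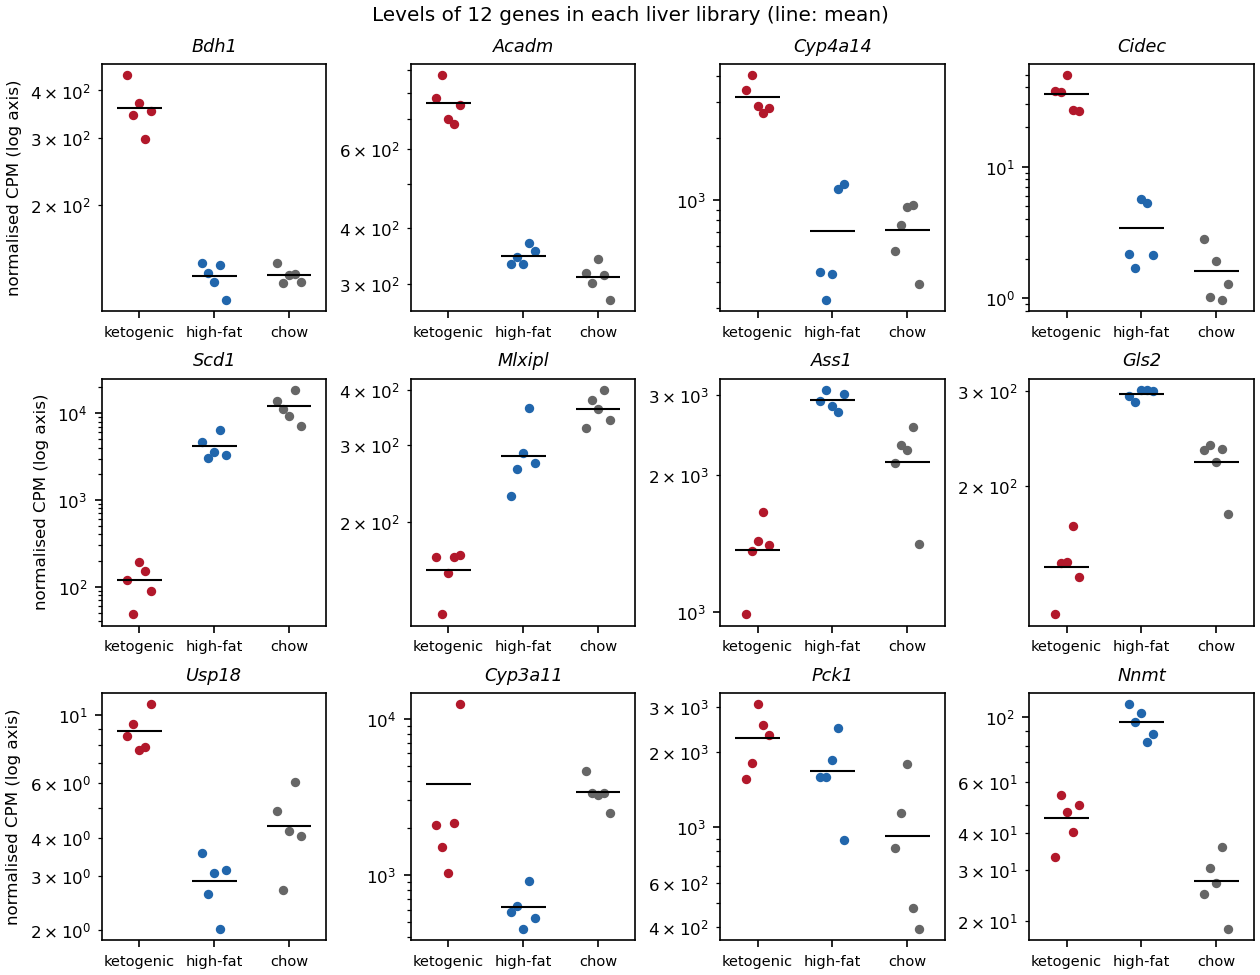
Normalised CPM (log axes) of 12 genes in each of the 15 libraries, with a line at each diet's mean. Bdh1, Acadm, Cyp4a14, Cidec, Usp18 and Cyp3a11 were higher in every ketogenic library than in any high-fat library, Scd1, Mlxipl, Ass1, Gls2 and Nnmt were lower, and Pck1 overlapped.

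Fatty acid and triglyceride synthesis divided evenly, with 6 of 31 members higher, 6 lower and 19 not passing, and a median of -0.06. The deepest fall of all named genes was Scd1, the desaturase that makes oleic acid from stearic acid (ENSMUSG00000037071.3, chr19:44394455-44407879, minus strand). It stood at 119.6, 47.8, 193, 153 and 90.0 CPM on the ketogenic diet and at 4665, 3040, 3612, 6448 and 3318 CPM on the high-fat diet (log2 fold change -5.13 ± 0.43, adjusted p = 4.04e-06). No library of one diet came near the other, and chow livers were higher still, 7157 to 18550 CPM. All 4 stearoyl-CoA desaturase genes together took 0.0130% ± 0.00587 of the reads against 0.419% ± 0.149 (SD, n = 5 each), a ratio of 32.3. Of the 3 members tested singly only Scd1 was called lower, and 2 were not called. Of the regulators, Mlxipl stood at 166, 123, 153, 166 and 168 CPM against 229, 264, 287, 364 and 272 CPM (log2 fold change -0.87 ± 0.11, adjusted p = 1.91e-05) and Srebf1 at 76.2, 56.6, 79.7, 97.7 and 76.0 CPM against 109.5, 155, 123, 102 and 139 CPM (log2 fold change -0.70 ± 0.18, adjusted p = 0.0129). The diets did not overlap for either, but Srebf1 was not called with length-scaled counts (log2 fold change -0.60, adjusted p = 0.0608). The classic synthesis enzymes were less clear: Acly, which supplies cytosolic acetyl-CoA, fell (log2 fold change -0.73 ± 0.23, adjusted p = 0.0329), the fatty acid synthase Fasn was at log2 fold change -0.75 ± 0.29, adjusted p = 0.0746, and the carboxylase Acaca was at log2 fold change -0.01 ± 0.15, adjusted p = 0.977, a value that turned sign with DESeq2 size factors or total-count scaling. Fasn passed when only the ketogenic and high-fat libraries were fitted (adjusted p = 0.00771) and with length-scaled counts (log2 fold change -0.97, adjusted p = 0.0209). Most of the members that rose act on polyunsaturated fat or triglyceride assembly, among them the elongases Elovl2 and Elovl5, the desaturase Fads2 and the monoacylglycerol acyltransferase Mogat1, which rose by 1.23 ± 0.22 (adjusted p = 6.01e-04). That count of 6 higher members was 3 without ketogenic library 4, high-fat library 11 or high-fat library 14.

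Of 24 genes of cholesterol synthesis and uptake 5 were higher and 1 lower, with a median of 0.15, a share near that of all genes. Those that rose included the regulator Srebf2 (0.50 ± 0.10) and the enzymes Idi1 (0.99 ± 0.23), Cyp51 and Hsd17b7, and the 1 that fell was Ebp (-0.20 ± 0.07, adjusted p = 0.0377). Sqle, the squalene epoxidase, had means of 86.9 ± 16.8 and 63.1 ± 29.0 CPM (SD, n = 5 each) and missed the threshold (log2 fold change 0.46 ± 0.29, adjusted p = 0.269). The count of 5 was 9 with total-count scaling and 9 without high-fat library 9. Ebp was not called in 10 of 17 alternatives: with total-count scaling, no filter or only the ketogenic and high-fat libraries in the fit, and without ketogenic library 2, 3, 4 or 8 or high-fat library 9, 10 or 11 (adjusted p up to 0.0987). The number lower was 3 without high-fat library 14 and 2 without ketogenic library 6.

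Among 24 genes of lipoproteins and cholesterol efflux 10 rose and 3 fell. Apoa4, an apolipoprotein of triglyceride-rich particles, stood at 2373, 1721, 3384, 929 and 858 CPM against 159.7, 158, 155, 171 and 142 CPM (log2 fold change 3.56 ± 0.37, adjusted p = 2.64e-05). The ketogenic libraries spread over about 4-fold, yet all were far above the narrow high-fat range. Vldlr, a receptor for triglyceride-rich lipoproteins, rose by 2.40 ± 0.34 (adjusted p = 1.58e-04), and Mttp, which loads lipid onto apolipoprotein B, by 0.32 ± 0.06. Soat2, which esterifies cholesterol, stood at 22.6, 21.7, 21.4, 21.5 and 21.1 CPM against 14.5, 14.9, 13.9, 16.1 and 13.1 CPM (log2 fold change 0.58 ± 0.07, adjusted p = 1.09e-05), and here it was the high-fat diet that left the chow range of 19.3 to 24.4 CPM. The 3 that fell were Apoc3 (-0.32 ± 0.09), Pltp (-0.80 ± 0.25, not called in 9 of 17 alternatives, adjusted p up to 0.0789) and Angptl8, an insulin-induced inhibitor of lipoprotein lipase, which stood at 3.97, 3.06, 2.62, 9.71 and 4.78 CPM against 38.1, 17.6, 6.86, 18.3 and 34.9 CPM (log2 fold change -2.23 ± 0.61, adjusted p = 0.0183). Library 6 of the ketogenic diet overlapped with library 11 of the high-fat diet for Angptl8.

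Bile acid genes moved in both directions, 5 higher and 6 lower of 19. Cyp2c70, which makes the muricholic acids of rodents, stood at 197, 145, 137, 195 and 202 CPM against 615, 624, 668, 583 and 438 CPM (log2 fold change -1.74 ± 0.18, adjusted p = 9.47e-06), with no overlap. Of the acidic synthesis pathway, Cyp27a1 was at -0.43 ± 0.08 (adjusted p = 8.63e-04) and Cyp7b1 at -1.52 ± 0.26 (adjusted p = 9.24e-04). Cyp7a1, the rate-limiting enzyme of the classic pathway, missed the threshold (log2 fold change 0.45 ± 0.19, adjusted p = 0.104), but passed with DESeq2 (adjusted p = 0.0334). Abcb4, which exports phosphatidylcholine into bile, stood at 411, 389, 423, 364 and 366 CPM against 214, 224, 189, 226 and 226 CPM (log2 fold change 0.86 ± 0.08, adjusted p = 1.20e-06), again with no overlap. The count of 5 higher genes was 3 without ketogenic library 3 or 8 or high-fat library 11 or 14.

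Glucose genes showed no common direction at their key steps. Of 21 genes for glucose synthesis 6 rose and 1 fell. Pck1, which commits oxaloacetate to glucose, stood at 1559, 1797, 3080, 2547 and 2337 CPM against 1578, 1580, 1854, 2477 and 888 CPM (log2 fold change 0.43 ± 0.40, adjusted p = 0.461), and G6pc, which releases free glucose, at log2 fold change -0.17 ± 0.20, adjusted p = 0.581. Neither passed, and the 2 diets overlapped. The 6 that rose were Gk, Ldha, Gpd2, Pcx, Aqp9 and Ppargc1a. Glycerol kinase Gk stood at 284, 301, 293, 259 and 242 CPM against 123, 112, 95.7, 129.7 and 109 CPM (log2 fold change 1.27 ± 0.08, adjusted p = 1.48e-08), and lactate dehydrogenase Ldha at 947, 862, 865, 770.5 and 712 CPM against 470.2, 419.8, 382, 399.5 and 368 CPM (log2 fold change 1.03 ± 0.09, adjusted p = 2.72e-07). Neither gene overlapped between diets, and in both the high-fat and chow means were close together (408 ± 39.8 and 399.9 ± 31.6 CPM for Ldha, SD, n = 5). Gpd2, the mitochondrial glycerol 3-phosphate dehydrogenase, rose by 0.92 ± 0.09 (adjusted p = 1.62e-06), and Aqp9, the glycerol channel of hepatocytes, by 0.28 ± 0.07 (adjusted p = 0.00666). Pyruvate carboxylase, encoded by Pcx, rose by 0.52 ± 0.09, and the coactivator Ppargc1a by 0.81 ± 0.22 (adjusted p = 5.91e-04 and 0.0134). Got1, the cytosolic aspartate aminotransferase, was the 1 that fell (-0.88 ± 0.23, adjusted p = 0.0136).

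For glycolysis, fructose and glycogen, 6 of 25 were higher and 4 lower. The 4 were the regulatory protein Gckr (-0.54 ± 0.08), the liver pyruvate kinase Pklr (-0.50 ± 0.16, not called in 8 of 17 alternatives), the pyruvate dehydrogenase kinase Pdk2 (-0.33 ± 0.09) and the glycogen phosphorylase Pygl (-0.46 ± 0.07), while the glycogen synthase Gys2 rose by 0.48 ± 0.09. Total-count scaling left 2 of the 4 lower.

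Of 25 genes of insulin signalling and FoxO1, 6 rose and none fell, with a median of 0.05, though 1 fell with length-scaled counts. Igfbp2, an IGF binding protein that rises with low insulin, stood at 361, 304, 319, 271 and 334 CPM against 126, 161, 116, 95.8 and 79.8 CPM (log2 fold change 1.46 ± 0.15, adjusted p = 6.91e-06), with no overlap. Igfbp1, a FoxO1 target repressed by insulin, stood at 39.0, 33.0, 167, 34.9 and 52.6 CPM against 4.35, 9.85, 25.1, 21.6 and 5.69 CPM (log2 fold change 2.28 ± 0.70, adjusted p = 0.0311), and without ketogenic library 4 at 1.58 with an adjusted p of 0.0924, the highest of 4 alternatives in which it did not pass. The pseudokinase Trib3, an inhibitor of Akt, rose by 1.03 ± 0.20, and Prkce, the protein kinase C isoform linked to diacylglycerol, by 0.34 ± 0.10 (adjusted p = 0.00125 and 0.0153). Igf1, the growth factor the liver secretes under growth hormone, had mean levels of 600.1 ± 69.0 and 600.2 ± 52.9 CPM (SD, n = 5 each) and was the gene called lower with length-scaled counts (-0.29, adjusted p = 0.0239). The count of 6 was 3 without ketogenic library 4, high-fat library 9 or high-fat library 14.

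**Figure D3:**
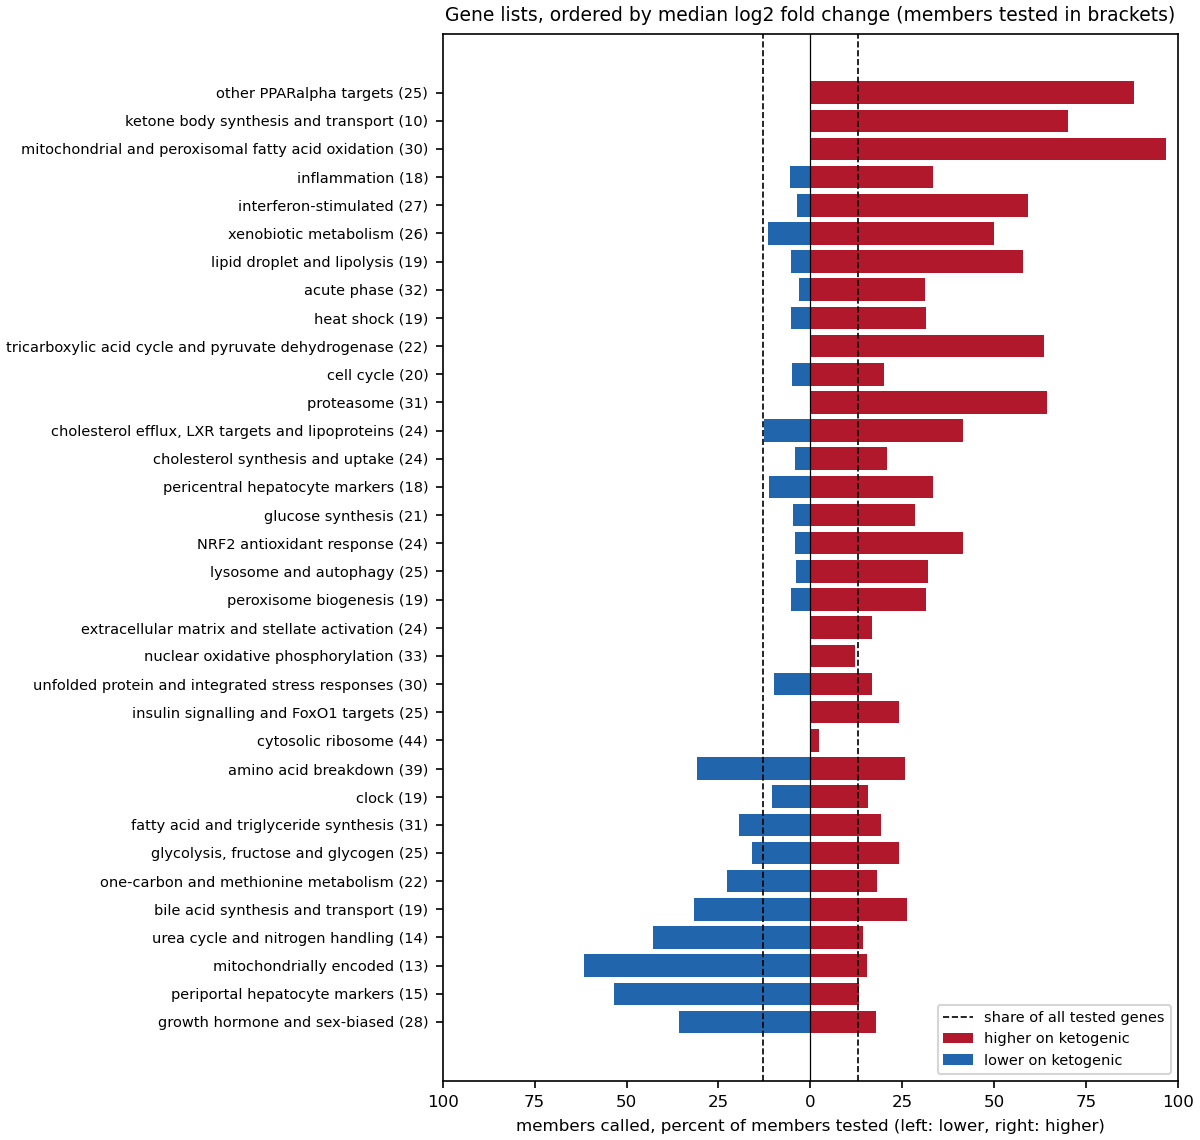
Share of the tested members of 34 gene lists that were higher (right) or lower (left) on the ketogenic diet, in percent, ordered by median log2 fold change. Dashed lines mark the 13.1% and 13.0% of all tested genes that were higher or lower. Fatty acid oxidation, other PPARalpha targets and ketone body genes extend farthest to the right, and the mitochondrially encoded genes farthest to the left.

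In the tricarboxylic acid cycle and pyruvate dehydrogenase list 14 of 22 rose and none fell, with a median of 0.22. Idh2, the NADP-dependent isocitrate dehydrogenase, stood at 120.2, 110.3, 115, 93.2 and 103 CPM against 58.6, 61.3, 62.0, 54.0 and 54.8 CPM (log2 fold change 0.90 ± 0.09, adjusted p = 1.80e-06), and Pdha1, a catalytic subunit of pyruvate dehydrogenase, rose by 0.42 ± 0.05 (adjusted p = 1.29e-05). Of 33 nuclear genes of oxidative phosphorylation 4 rose and none fell, a share of 12.1% near the 13.1% of all tested genes that rose. Among the 4 were Ndufs1 (0.31), Uqcrc2 (0.37) and Atp5b (0.31, or 0.14 and not called with length-scaled counts). That count was 15 with total-count scaling and 10 without high-fat library 9. Of the 13 protein-coding genes of the mitochondrial genome 8 fell and 2 rose, with a median of -0.31. Cytochrome b of complex III, mt-Cytb, stood at 6762, 6700, 7656, 9549 and 8607 CPM against 14830, 16190, 14090, 14690 and 14460 CPM (log2 fold change -0.92 ± 0.09, adjusted p = 1.61e-06). The 2 that rose, mt-Nd1 and mt-Nd2, both did so by 0.29, and mt-Nd1 was not called with only the ketogenic and high-fat libraries in the fit or without ketogenic library 3, 4 or 8 or high-fat library 11, 12 or 14. Together the 13 genes took 9.81% ± 0.354 of the reads against 11.8% ± 0.751 (SD, n = 5 each, two-sided exact permutation adjusted p = 0.0136).

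Of 14 genes of the urea cycle and nitrogen handling 6 fell and 2 rose, with a median of -0.17. Ass1, the argininosuccinate synthase, stood at 989, 1363, 1437, 1660 and 1407 CPM against 2906, 3077, 2839, 2753 and 3021 CPM (log2 fold change -1.09 ± 0.14, adjusted p = 2.45e-05). The chow libraries ran from 1414 to 2547 CPM, with 1 inside the ketogenic range and 4 between the diets. Cps1, which fixes ammonia as carbamoyl phosphate, stood at 2155, 3434, 3124, 3826 and 3334 CPM against 5162, 5953, 5467, 5147 and 5148 CPM (log2 fold change -0.76 ± 0.14, adjusted p = 8.54e-04), and its chow range of 2615 to 4493 CPM overlapped only the ketogenic one. Asl, Otc, Arg1 and Nags were also called lower, so all 5 enzymes of the cycle itself were (Cps1, Otc, Ass1, Asl and Arg1). The count of 6 was 4 with total-count scaling, with length-scaled counts, with only the ketogenic and high-fat libraries in the fit and without ketogenic library 2. The 2 that rose were the aspartate carrier Slc25a13 (0.39 ± 0.06) and the glutamine synthetase Glul, which stood at 1092, 1065, 1114, 955 and 1031 CPM against 716, 789, 775, 663 and 849 CPM (log2 fold change 0.47 ± 0.07, adjusted p = 1.50e-04).

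Among 39 genes of amino acid breakdown 12 fell and 10 rose, with a median of -0.03. The largest fall was Acmsd, which steers tryptophan carbon away from NAD, at 4.11, 6.20, 6.60, 6.91 and 6.95 CPM against 36.4, 40.7, 31.8, 24.5 and 23.2 CPM (log2 fold change -2.35 ± 0.19, adjusted p = 1.33e-06). Kynu, of the same tryptophan pathway, fell by 0.67 (SE 0.08), and the glutaminase Gls2 stood at 115, 144, 144, 168 and 135 CPM against 294, 287, 301, 302 and 300.2 CPM (log2 fold change -1.07 ± 0.09, adjusted p = 2.72e-07). Neither Acmsd nor Gls2 overlapped between diets. The count of 10 higher genes was 5 without ketogenic library 3, 6 without library 6 and 4 without library 8.

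Some of these nitrogen genes are also markers of periportal hepatocytes, those nearest the incoming blood. Of 15 periportal markers 8 fell and 2 rose (median -0.42), with Ass1, Asl, Cps1, Gls2, Arg1 and Hal shared with the nitrogen lists, and Etnppl, which breaks down phosphoethanolamine, at -1.23 ± 0.18. The summed level of the 15 ran from 7241 to 11470 CPM on the ketogenic diet, 12760 to 14920 on the high-fat diet and 7588 to 11850 on chow. Of 18 markers of pericentral hepatocytes, at the other end of the lobule, 6 rose and 2 fell (median 0.15, with 1 lower without ketogenic library 4 or high-fat library 10 or 11), and their sum ran from 13030 to 14990 CPM against 8910 to 10240. Cyp2e1, the ethanol- and ketone-metabolising cytochrome of that zone, made up most of it at 10750, 11410, 10180, 10200 and 11690 CPM against 6430, 7223, 7604, 7039 and 6394 CPM (log2 fold change 0.64 ± 0.09, adjusted p = 4.38e-05). In bulk RNA, fewer cells of a type and less RNA per cell cannot be told apart, and the part of zonation in these lists was not tested.

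One-carbon metabolism had 4 of 22 genes higher and 5 lower. Nnmt, which consumes S-adenosylmethionine to methylate nicotinamide, stood at 33.3, 54.0, 47.3, 40.4 and 50.1 CPM against 111, 96.7, 103, 82.0 and 87.8 CPM (log2 fold change -1.09 ± 0.16, adjusted p = 2.06e-04). The chow range was 18.8 to 36.0 CPM, and only its highest library reached the ketogenic range. The glycine methyltransferase Gnmt fell by 0.52 on the log2 scale (SE 0.13), and Mat1a, which makes S-adenosylmethionine in hepatocytes, stood at 3416, 3917, 3628, 3367 and 3282 CPM against 2349, 2196, 2436, 2684 and 2863 CPM (log2 fold change 0.49 ± 0.12, adjusted p = 0.0046).

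Drug-metabolising genes were higher in 13 of 26 and lower in 3 (median 0.34). The top rise of all named genes was Cyp2b9 (ENSMUSG00000040660.6, chr7:26173411-26210661, plus strand), a cytochrome better known from female mouse liver. It stood at 122, 170, 26.1, 31.2 and 96.8 CPM against 0.853, 0.390, 0.577, 2.15 and 3.60 CPM (log2 fold change 5.92 ± 0.78, adjusted p = 1.89e-04), and at 0 to 1.62 CPM on chow. Ketogenic libraries 4 and 6 were the lowest of their diet and still above 7-fold the highest high-fat library, and without high-fat library 14 the log2 fold change was 6.54. Cyp2a22 stood at 31.2, 26.9, 16.7, 14.9 and 22.6 CPM against 1.02, 0.390, 0.739, 1.25 and 1.42 CPM (log2 fold change 4.55 ± 0.36, adjusted p = 1.85e-06). For Cyp3a11, the main hepatic target of the xenobiotic receptor PXR, the levels were 2076, 1500, 1032, 2136 and 12300 CPM against 576, 636, 451, 920.3 and 533 CPM (log2 fold change 2.61 ± 0.62, adjusted p = 0.00853), and chow livers had 2482 to 4591 CPM. Ketogenic library 8 alone was above the chow range, and without it the log2 fold change was 1.44 with an adjusted p of 0.00142. The neighbouring Cyp3a59 showed the same library far above the others, at 14.9, 8.80, 11.2, 11.7 and 109 CPM against 3.52, 3.36, 3.21, 6.44 and 3.21 CPM (log2 fold change 2.99 ± 0.75, adjusted p = 0.0118, or 1.57 without library 8). Ugt1a1, which conjugates bilirubin, and the monooxygenase Fmo1 rose by 0.79 ± 0.09 and 0.77 ± 0.08. Genes of near-identical copies, such as those of the Cyp2a, Cyp2b and Cyp3a clusters, share reads, so values for single members are uncertain.

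Antioxidant genes under NRF2 were higher in 10 of 24, by 0.20 to 0.56, and 1 was lower. That 1 was Gstp1, a glutathione S-transferase, at 232, 262, 476, 509 and 389 CPM against 1640, 2053, 1665, 1082 and 1257 CPM (log2 fold change -2.04 ± 0.27, adjusted p = 1.45e-04), while chow livers had 1666 to 3173 CPM. The number of lower genes was 3 without ketogenic library 8 and 2 without library 4. Srxn1, which repairs peroxiredoxins, stood at 31.1, 33.7, 38.6, 26.5 and 30.4 CPM against 26.3, 23.1, 21.01, 23.4 and 24.1 CPM (log2 fold change 0.44 ± 0.09, adjusted p = 0.00156), and all high-fat livers and ketogenic library 6 were below the chow range of 30.4 to 37.8 CPM.

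Genes that depend on growth hormone pulses and differ by sex fell more often than they rose, 10 lower and 5 higher of 28 (median -0.49). Among those that fell, Mup7, Cyp7b1 and Hsd3b5 are known to be higher in males. Mup7, a major urinary protein that carries pheromones, stood at 733, 766, 905, 3646 and 2008 CPM against 31670, 36340, 31260, 13530 and 10350 CPM (log2 fold change -3.93 ± 0.58, adjusted p = 4.23e-04), the complement gene C6 was lower (log2 fold change -1.83 ± 0.21, adjusted p = 3.88e-05), and Selenbp2 stood at 192, 115, 114, 291 and 283 CPM against 1267, 1454, 2004, 712 and 516 CPM (log2 fold change -2.58 ± 0.44, adjusted p = 0.00122). None of the 3 overlapped between diets, which for Mup7 and Selenbp2 was fixed by the rule that named them. Those that rose included Cyp2b9, Cyp2b13, Cyp2a4 and Cyp17a1, of which the first 3 are known to be higher in females. The labels give no sex, and its part in these lists was not tested.

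Because near-identical copies share reads, families were also summed as a share of all reads in a library. Of 24 families 17 differed (70.8%) by a two-sided exact permutation test with adjusted p under 0.05, which in 5 against 5 libraries cannot give a p below 0.00794. The major urinary proteins took 3.83, 4.00, 4.16, 6.03 and 5.06% of reads on the ketogenic diet and 13.4, 14.4, 12.2, 8.01 and 7.71% on the high-fat diet, means of 4.62 ± 0.918 and 11.2 ± 3.11 (SD, n = 5 each). All 5 ketogenic libraries were below all high-fat libraries, among which 12 and 14 were the lowest (exact adjusted p = 0.0136). Albumin took 6.92 ± 0.240% against 5.29 ± 0.0795%, the apolipoproteins 3.82 ± 0.182% against 3.18 ± 0.143%, and the antiprotease family Serpina1 1.75 ± 0.194% against 2.73 ± 0.256%. Each of the 3 was at the same exact adjusted p of 0.0136. Within that last family, Serpina1e stood at 462, 870.1, 834, 2466 and 1104 CPM against 6979, 9117, 10330, 4579 and 4441 CPM (log2 fold change -2.63 ± 0.44, adjusted p = 0.00106). The Cyp4a family rose from 0.211 ± 0.0688% to 0.594 ± 0.109%, the acyl-CoA thioesterases from 0.0280 ± 0.00475% to 0.0677 ± 0.0112%, and the Cyp3a family from 0.113 ± 0.0288% to 0.466 ± 0.494%, with ketogenic library 8 at 1.35% and the next at 0.292%. Carboxylesterases took 0.700 ± 0.0872% against 0.718 ± 0.0407% and did not pass (exact adjusted p = 0.77).

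**Figure D4:**
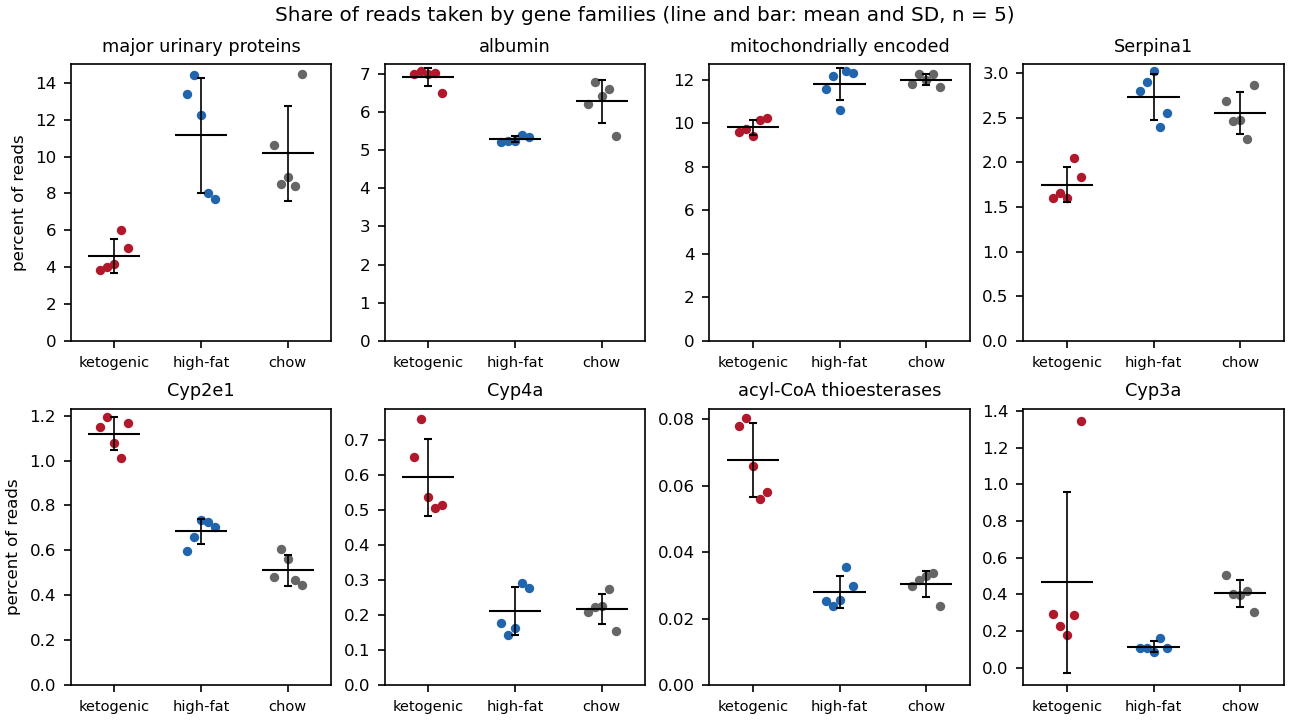
Percent of all reads taken by 8 gene families in each of the 15 libraries, with the mean and SD of each diet (n = 5). Major urinary proteins, mitochondrially encoded genes and Serpina1 were lower in every ketogenic library than in any high-fat library and the other 5 families were higher; the SD of Cyp3a reflects 1 library at 1.35%.

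Interferon-stimulated genes were higher in 16 of 27 and lower in 1 (median 0.53). Usp18, which dampens interferon signalling, stood at 8.57, 9.39, 7.72, 7.89 and 10.8 CPM against 3.55, 2.61, 3.07, 2.02 and 3.15 CPM (log2 fold change 1.62 ± 0.18, adjusted p = 7.43e-06), and Irf7, the factor that amplifies the response, at 32.2, 27.4, 25.7, 23.2 and 28.4 CPM against 15.5, 15.5, 15.7, 12.1 and 18.0 CPM (log2 fold change 0.83 ± 0.10, adjusted p = 1.09e-05). Neither overlapped. Rsad2, the antiviral protein viperin, rose by 1.44 ± 0.27 (adjusted p = 0.00182), with high-fat values of 6.54, 6.19, 5.43, 4.26 and 6.38 CPM all below the chow range of 7.73 to 13.2 CPM. The gene that fell was the chemokine Cxcl9 (log2 fold change -0.61 ± 0.19, adjusted p = 0.0249), whose values overlapped and which was not called in 8 of 17 alternatives: with total-count scaling, length-scaled counts or only the ketogenic and high-fat libraries in the fit, and without ketogenic library 2, 3 or 8 or high-fat library 10 or 14 (adjusted p up to 0.0889).

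Of 18 inflammation genes 6 rose and 1 fell, the NF-kappaB subunit Rela (-0.29 ± 0.07, not called with total-count scaling or length-scaled counts). Vcam1, an adhesion molecule for leukocytes, stood at 12.5, 15.3, 22.4, 13.3 and 15.4 CPM against 7.65, 7.99, 8.13, 8.62 and 11.6 CPM (log2 fold change 0.84 ± 0.16, adjusted p = 0.00129), and Tnfaip3, a brake on NF-kappaB, rose by 0.80 ± 0.18 (adjusted p = 0.00358). Of 32 acute phase genes 10 rose and 1 fell. Lcn2, the iron-sequestering lipocalin, stood at 6.33, 22.3, 36.7, 9.49 and 5.42 CPM against 5.68, 3.72, 1.80, 1.54 and 4.21 CPM (log2 fold change 2.24 ± 0.55, adjusted p = 0.0104), and the metallothionein Mt2 at 1.23, 1.94, 22.1, 11.3 and 4.66 CPM against 0.369, 0.390, 0.554, 1.31 and 1.36 CPM (log2 fold change 3.39 ± 0.76, adjusted p = 0.00653, or 2.62 without ketogenic library 4). Both spread widely within the ketogenic diet, and the lowest ketogenic library of each lay within the high-fat range. The serum amyloid gene Saa1 did not pass, at 15.9, 45.4, 142, 29.5 and 14.8 CPM against 162, 86.3, 38.8, 40.9 and 65.8 CPM (log2 fold change -0.68 ± 0.60, adjusted p = 0.449), although without ketogenic library 4 it was at -1.58 with an adjusted p of 0.0329. The 1 that fell was the antiprotease Serpina3k (log2 fold change -0.69 ± 0.14, adjusted p = 0.00125), and the number of lower genes was 4 without ketogenic library 4 and 2 without ketogenic library 6 or high-fat library 14. Of 24 matrix and stellate activation genes 4 rose, Mmp14, Lum, Dcn and Timp3. Timp3 was not called in 7 of 17 alternatives (adjusted p up to 0.121), with total-count scaling and without ketogenic library 2, 3 or 8 or high-fat library 9, 10 or 11. In the same list the collagen Col1a1 was at log2 fold change 0.16 ± 0.29, adjusted p = 0.715.

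For the cell type markers that follow, the shares of all tested genes were 13.1% higher and 13.0% lower. Of 14 Kupffer cell and macrophage markers 3 rose (21.4%), Vsig4, C1qb and Cd5l, and none fell. Their summed level ran from 171.2 to 260.6 CPM against 138.2 to 229.7 CPM. That count was 0 without high-fat library 11, 1 without ketogenic library 2 or 4, 5 without ketogenic library 6 or 8 and 6 without high-fat library 14. Adgre1, the F4/80 antigen of macrophages, missed the threshold (log2 fold change 0.20 ± 0.17, adjusted p = 0.415). Of 10 markers of B and plasma cells 4 fell, among them Ms4a1, Igkc and Jchain, and the sum ran from 21.6 to 35.2 CPM against 27.4 to 56.3 CPM. Only 2 fell without ketogenic library 2, 4 or 6 or high-fat library 10, and 1 with the 1 CPM filter. Ms4a1 was not called in 11 of 16 alternatives (adjusted p up to 0.0842). Of 9 T and NK cell markers Cd3d and Cd4 fell (1 of the 2 with length-scaled counts or the 1 CPM filter), and of 3 tested neutrophil markers none passed. Endothelial markers had 1 higher (4 without high-fat library 14) and 1 lower of 15, and stellate cell markers 2 higher of 10. Of 7 cholangiocyte markers 2 were lower, or 1 without ketogenic library 2, 3 or 4 or high-fat library 9 or 14. Of erythroid and platelet markers 2 of 9 fell, Alas2 and Slc4a1 (1 with length-scaled counts, the 1 CPM filter or only the ketogenic and high-fat libraries in the fit), and the sum ran from 339.7 to 556.8 CPM against 401.3 to 1169 CPM. The hepatocyte markers Alb and Apob rose and Cps1 fell (Apob was not called with length-scaled counts, and 2 fell without ketogenic library 6 or high-fat library 12 or 14), and the sum of the 11 ran from 102800 to 111900 CPM against 84970 to 100700 CPM. Of 4 tested adipocyte and pancreas markers 1 fell, Cela1, which was not called in 9 of 17 alternatives (adjusted p up to 0.0741). The summed level of all 14 such markers ran from 6.271 to 16.16 CPM against 8.229 to 17.52 CPM. Of these 14, the pancreatic genes Ins1 and Ins2 were the 2 at 0. Shares lower were 40.0% of B and plasma cell, 22.2% of T and NK cell, 28.6% of cholangiocyte and 22.2% of erythroid and platelet markers. Each is a share of 10 or fewer tested genes, against 13.0% of all tested genes. The part of cell composition in the gene lists was not tested.

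Of 31 proteasome subunits 20 rose, by 0.14 to 0.38, and none fell, and the count was 13 without high-fat library 12. Psma6 stood at 86.1, 92.8, 87.9, 83.0 and 93.5 CPM against 76.1, 71.5, 65.9, 67.8 and 62.6 CPM (log2 fold change 0.37 ± 0.06, adjusted p = 1.43e-04), with chow at 78.9 to 83.7 CPM, above the high-fat range. Of 19 heat shock genes 6 rose and 1 fell, the regulator Hsf1 (-0.34 ± 0.08, not called with total-count scaling). Of 30 genes of the unfolded protein and integrated stress responses 5 rose and 3 fell, with Atf5 at 0.51 ± 0.09. The stress-induced factor Atf3 rose by 1.16 ± 0.31 and the chaperone partner Dnajb9 by 0.70 ± 0.15 (adjusted p = 0.00987 and 0.00395), while Ddit3 was at -0.44 ± 0.14 and not called in 5 of 17 alternatives. Atf3 and Dnajb9 were called in every alternative that gave a value. Those counts were 8 and 1 with total-count scaling, and 9 and 5 without high-fat library 9. With length-scaled counts 1 was lower. Of 25 lysosome and autophagy genes 8 rose and 1 fell (2 without high-fat library 9 or 12), led by the acid lipase Lipa (0.64 ± 0.08, adjusted p = 2.73e-05) and the mitophagy receptor Bnip3 (0.62 ± 0.09, adjusted p = 9.64e-05). Of 44 cytosolic ribosomal genes only Rpl3 rose (0.24 ± 0.09, adjusted p = 0.0481), but 8 did with total-count scaling, 5 without high-fat library 9, and none with length-scaled counts, with only the ketogenic and high-fat libraries in the fit or without any 1 of ketogenic libraries 2, 3, 4, 6 and 8 or high-fat libraries 11, 12 and 14.

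Of 20 cell cycle genes 4 rose and 1 fell. Those that rose were Ccnd1, Mki67, Top2a and Tyms. Top2a was not called in 10 of 17 alternatives (adjusted p up to 0.153) and Tyms in 3 of 17 (up to 0.0709). Ccnd1, the cyclin of early G1, stood at 25.9, 14.4, 25.3, 9.26 and 14.2 CPM against 6.48, 5.47, 5.36, 5.35 and 6.48 CPM (log2 fold change 1.61 ± 0.27, adjusted p = 8.38e-04), with no overlap and with the high-fat values below the chow range of 9.53 to 16.6 CPM. Mki67, a marker of dividing cells, stood at 2.83, 2.78, 4.83, 1.25 and 1.10 CPM against 1.14, 1.29, 0.970, 0.897 and 1.12 CPM (log2 fold change 1.23 ± 0.35, adjusted p = 0.0165), where libraries 6 and 8 lay within the high-fat range. The count of 4 was 2 without high-fat library 10, and the 1 that fell, Rrm2, was not called with total-count scaling or length-scaled counts or without ketogenic library 2 or 3 or high-fat library 11 or 14. Of 19 clock genes 3 rose and 2 fell, the activator Arntl at -0.39 ± 0.09 and the repressor Bhlhe41 at -0.74 ± 0.21, and Ciart, a repressor of the clock activators, rose by 1.29 ± 0.30 (adjusted p = 0.00613). With total-count scaling 5 rose, and with length-scaled counts 1 fell, Bhlhe41 being at -0.28 with an adjusted p of 0.579. The sources used here do not give the hour of tissue collection. Outside the lists, the recombination gene Rad51b stood at 6.99, 8.12, 4.96, 3.22 and 4.32 CPM against 0.625, 0.511, 0.439, 0.737 and 0.635 CPM (log2 fold change 3.23 ± 0.25, adjusted p = 1.46e-07), and chow at 1.98 to 3.24 CPM had 1 library that reached the ketogenic range. Cabyr, a calcium-binding protein first described in sperm, stood at 0.236, 0.689, 1.69, 0.795 and 1.02 CPM against 9.24, 9.79, 9.35, 10.3 and 16.9 CPM (log2 fold change -3.66 ± 0.36, adjusted p = 1.14e-05), with chow again between at 1.97 to 4.74 CPM.

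The share of a gene's reads taken by each of its transcripts was compared for 8730 genes with 2 or more transcripts. In 29 genes (0.332%) the shares differed with an adjusted p under 0.05 and by at least 10 percentage points. Of the 29, 6 were major urinary protein genes, whose reads cannot be placed with certainty. The changes named here were chosen among those with no overlap between diets. The largest of them was in Mat2a, a catalytic subunit of S-adenosylmethionine synthetase. Retention of its last intron is known to depend on the cell's supply of S-adenosylmethionine. The transcript with that intron removed, Mat2a-201, took 71.2, 73.1, 81.8, 68.4 and 75.5% of the gene's reads on the ketogenic diet and 44.9, 49.8, 45.9, 32.8 and 41.0% on the high-fat diet (adjusted p = 7.34e-06), and 49.5 to 60.6% on chow. Mat2a-202, which keeps the 585-base intron at chr6:72434396-72434980 (minus strand), took 26.3, 24.2, 16.8, 27.4 and 22.0% against 51.6, 46.0, 50.0, 62.2 and 55.6%. No library of one diet overlapped with the other for either transcript, and in 4 of the 5 chow libraries Mat2a-201 lay between the diets. Mat2a as a whole gene stood at 124, 130.5, 121, 115 and 119 CPM against 95.8, 91.6, 76.0, 97.9 and 84.8 CPM (log2 fold change 0.45 ± 0.08, adjusted p = 5.90e-04). The start of the intron, chr6:72434966-72434995 (minus strand, GRCm38, GENCODE M21 transcript sequence), is shown with exon bases in lower case and intron bases in capitals.
Mat2a: tggggtcattgtcagGTAAAGATGGTAAAA

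A second change lay in Pik3r1, which encodes the regulatory subunits of phosphoinositide 3-kinase, the enzyme that insulin activates. The full-length subunit p85alpha comes from Pik3r1-202 and the short subunit p55alpha from Pik3r1-201, which starts at an exon of its own. The short transcript took 8.25, 15.7, 5.50, 7.43 and 12.0% of the gene's reads on the ketogenic diet and 0.655, 0.475, 1.67, 0 and 1.67% on the high-fat diet, and 0 to 0.831% on chow. The lowest ketogenic library was more than 3-fold above the highest high-fat library (gene-level adjusted p = 0.0300). The gene as a whole was at log2 fold change 0.04 ± 0.14, adjusted p = 0.859. The call did not pass without ketogenic library 2 (adjusted p = 0.0511), 3 (0.156) or 8 (0.0808) or high-fat library 9 (0.0662) or 10 (0.0849). Nor did it pass when only transcripts with at least 5% of the gene were tested (adjusted p = 0.0734). The minimum of 10 percentage points was met by Pik3r1-202, at 87.3 ± 4.89% against 98.1 ± 0.737% (SD, n = 5 each). Pik3r1-201 itself differed by 8.89 points. The coding part of the first exon of Pik3r1-201, chr13:101692183-101692288 (minus strand), is shown because it begins the short subunit, with its start codon in capitals.
Pik3r1: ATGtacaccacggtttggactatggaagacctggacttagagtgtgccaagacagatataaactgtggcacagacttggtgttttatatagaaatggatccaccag

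In Ndufv1, the complex I subunit that takes electrons from NADH, a transcript without the second exon, Ndufv1-207, took 0.120, 0, 0.0954, 0.521 and 0.457% of the gene's reads on the ketogenic diet and 17.9, 19.0, 13.2, 11.6 and 2.82% on the high-fat diet (adjusted p = 9.61e-23). With limma the adjusted p was far weaker, 0.0341. Chow livers had 11.0 to 30.8%, so it was the ketogenic livers in which the transcript was nearly missing. The level of the gene did not pass the test (log2 fold change -0.01 ± 0.07, adjusted p = 0.922). The 83 bases of the exon, chr19:4011346-4011428 (minus strand), are skipped in Ndufv1-207 and present in the full-length Ndufv1-201.
Ndufv1: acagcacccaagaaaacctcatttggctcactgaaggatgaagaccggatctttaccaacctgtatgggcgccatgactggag

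**Figure D5:**
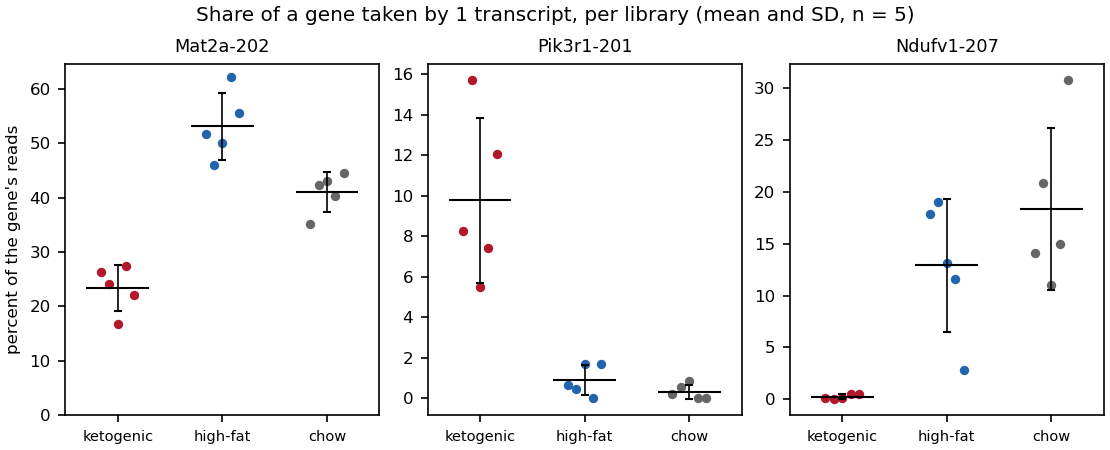
Percent of a gene's reads assigned to 1 transcript in each of the 15 libraries, with the mean and SD of each diet (n = 5). Mat2a-202, which keeps the last intron, and Ndufv1-207, which lacks the second exon, were lower in every ketogenic library than in any high-fat library, and Pik3r1-201, the short p55alpha transcript, was higher.

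The other 5 transcript changes named by the same rule had lower counts or wider spread. Sp3, a zinc finger transcription factor, had 64.7 ± 4.86% of its reads on Sp3-201 against 75.2 ± 3.55%, and Trip12, a ubiquitin ligase, 6.86 ± 1.61% on Trip12-201 against 20.6 ± 10.2% (SD, n = 5 each). Sh2d3c, a signalling adaptor, had 98.3 ± 1.35% on Sh2d3c-202 against 73.0 ± 13.8%, Tbc1d25, which regulates autophagosomes, 29.6 ± 3.21% on Tbc1d25-202 against 12.6 ± 9.17%, and Gba2, a glucosylceramidase, 0.136 ± 0.303% on Gba2-206 against 11.4 ± 10.9%. The last 3 genes had a mean of 132 to 313 reads per library on the ketogenic diet. Their gene-level adjusted p-values ran from 0.00222 to 0.00788, and those of Trip12 and Sp3 were 0.00502 and 0.0282. Trip12 did not pass without high-fat library 10 (adjusted p = 0.0928) or 12 (0.053), and Sp3 did not pass without ketogenic library 3, 4 or 6 or high-fat library 9, 11, 12 or 14 (0.0577 to 0.11). When only transcripts with at least 5% of the gene were tested, Trip12 (adjusted p = 0.183) and Sp3 (0.173) did not pass. The difference in Gba2-206 was -6.73 percentage points without high-fat library 9, against -11.3 with it, and that in Sp3-201 was -9.23 without high-fat library 10, both under the minimum of 10 points. With limma, Gba2 (adjusted p = 0.132), Sh2d3c (0.1), Sp3 (0.175) and Trip12 (0.206) did not pass.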

How the data were processed

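The data are 15 RNA-sequencing libraries from mouse liver. Per the submitters' processing notes the tools were Trimmomatic 0.36, kallisto 0.44 and edgeR 3.28, with build GRCm38.p6, and the sources used here do not give their settings. The authors deposited 1 file per library with 1 row per transcript, holding the estimated count that kallisto assigned from the reads, per the file headers. The same deposited files give TPM, computed by kallisto, per the file headers. TPM was used only, with effective lengths, for 1 alternative. Estimated counts were summed per gene through GENCODE M21: 105734 of 106332 transcripts matched 25731 genes, and the 598 others held 0.184% to 0.223% of reads. Sums were rounded to whole numbers. Reads were counted without molecular identifiers.

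All 15 libraries entered 1 fit (edgeR 4.0.16, TMM factors, filterByExpr with a minimum count of 10, robust quasi-likelihood F test, 12 residual degrees of freedom), so that the 3 diets share 1 estimate of the spread. The test compared ketogenic with high-fat, with Benjamini-Hochberg adjustment over 13967 genes and a threshold of 0.05. Transcript shares were tested with diffSpliceDGE and Simes' method. Family shares of reads were tested by exact permutation. The scripts were tested on simulated data. Replicates were compared pairwise by chi-square over genes, 30 pairs, and all differed by more than sampling noise (18.4 to 110.5 per degree of freedom).

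The text names the 12 largest rises and falls with no overlap between diets and a mean of at least 5 CPM. It also names from each list the 3 members with the lowest adjusted p-values, a fixed panel and exceptions in direction where 5 or fewer. Added to these are the 8 largest transcript changes among genes outside the summed families with a mean of at least 100 reads in both diets. For these 8, as for the 12 largest rises and falls, the rule required no overlap between diets, so that property was fixed by the choice. Acly, Acss2, Cyp7b1, Elovl1, Fabp1, Oxct1, Ppara and Sirt3 were named after their values were seen. Also outside this rule were Aqp9, Arg1, Asl, Elovl2, Elovl5, Fads2, Hal, Hsd3b5, Lipc, Nags, Otc, Pcx, Pnpla2 and Ppargc1a. None of these genes is among the 206 named genes followed through the alternatives. Some genes that this rule names are not reported here. Members and lists were chosen with earlier results of these data known.

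Alternatives were DESeq2 (1.42.0) and its size factors, total-count scaling, no filter or a filter of 1 CPM in 5 libraries, length-scaled counts, the ketogenic and high-fat libraries alone, limma (3.58.1) for transcript shares, other share minimums, other denominators for families, and leaving out each library in turn.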

Additional observations from a re-analysis of the deposited data

Results flagged for a closer look

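Among 237 groups of 5 values looked at, 21 held a library whose gap to its nearest neighbour was large against the range of its group; chance flags about 1 in 20 groups, or 11.8 here. There were 13 in ketogenic, 4 in high-fat and 4 in chow libraries, with 5 in ketogenic library 8, 4 in library 6 and 3 in library 4.

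Ketogenic library 8 stood apart in the Cyp3a genes, with Cyp3a11 at 12300 CPM (next 2136) and Cyp3a59 at 109.1 CPM (next 14.9). The whole Cyp3a family took 1.345% of its reads (next 0.292%), the UDP-glucuronosyltransferases 0.5214% (next 0.472%), and albumin 6.491%, below the next at 6.99%. Ketogenic library 6 had more Mup2, 171.8 CPM (next 59.9), Mup21, 74.31 CPM (next 29.8), and Sqle, a cholesterol synthesis enzyme, 116.2 CPM (next 83.2), and a lower share of Sp3-201 in Sp3, 56.29% (next 65.8%). Ketogenic library 4 had Igfbp1 at 166.6 CPM (next 52.6), Saa1 at 141.7 CPM (next 45.4) and immunoglobulin genes at 0.0009672% of reads (next 0.000751%). In ketogenic library 2 Gba2-206 took 0.678% of Gba2 reads against 0 in the others.

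Of the high-fat libraries, 12 had Acot3 at 14.42 CPM (next 5.96) and Cyp3a59 at 6.439 CPM (next 3.53), 9 had Plin2 at 398.2 CPM (next 296.1), and 14 had Cabyr at 16.85 CPM (next 10.3). Of the chow libraries, 15 had Apoa4 at 214.7 CPM (next 126.7), 18 had Pdk4 at 33.5 CPM (next 17.5) and the collagen Col1a1 at 4.655 CPM (next 2.19), and 19 had Mup21 at 305.5 CPM (next 201.9).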

How the results depend on the processing

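Leaving out each library in turn gave 2862 to 3943 called genes, 1479 to 1982 higher and 1381 to 1961 lower, 194 to 250 at least 2-fold higher and 170 to 208 at least 2-fold lower, 16 to 18 families and 32 to 41 genes with changed transcript shares. Only 18 to 23 of the 29 genes with changed transcript shares were called again as each library was left out. DESeq2 called 2072 genes higher and 1851 lower. Total-count scaling left 960 genes lower, and the 1 CPM filter 106 genes at least 2-fold lower. The transcript count of 29 became 9 with a minimum of 20 percentage points, 58 with 5 points, 17 when only transcripts with at least 5% of the gene were tested and 12 with limma. Of the 12 genes called with limma, 9 were among the 29. Of 206 named genes 184 were called, and 147 stayed called in every alternative that gave a value, at most 17 a gene. No paired analysis was possible because the label numbers never recur between the diets.

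Reversals in sign were all in results that were not called. Csf3r was at -0.48 with length-scaled counts, -0.068 without ketogenic library 3 and -0.043 without high-fat library 12, and from -0.068 to 0.112 as each library was left out. Acaca was at 0.0015 with DESeq2 size factors, 0.0016 with DESeq2, 0.061 with total-count scaling, 0.0095 with no filter, 0.079 with length-scaled counts, 0.0155 and 0.0593 without ketogenic library 6 and 8, and 0.0142 and 0.0111 without high-fat library 9 and 11 (range -0.0656 to 0.0593). Igf1 was at 0.0088 with DESeq2 size factors and with DESeq2, 0.057 with total-count scaling, 0.017 with no filter, 0.0014 with only the ketogenic and high-fat libraries, 0.055 and 0.030 without ketogenic library 3 and 8, and 0.024 and 0.034 without high-fat library 9 and 14 (range -0.0466 to 0.055), and it was called lower with length-scaled counts (-0.29, adjusted p = 0.0239). The difference in the serum amyloid A share of reads, in percent, was -0.000663 with TMM denominators, -0.0023 without major urinary proteins in the total, -0.00325 without ketogenic library 4 and -0.000786 without high-fat library 12 (range -0.00325 to 0.00825). Without major urinary proteins in the total the difference was -0.000624 for the cytosolic ribosomal proteins share of reads and -0.0107 for the UDP-glucuronosyltransferases share of reads. The difference in the carboxylesterases share of reads was 0.00927 without ketogenic library 4 (range -0.0504 to 0.00927). The cause was not tested.

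Depth limits genes of a few CPM and transcripts of genes near 100 reads. Reads shared by near-identical copies were divided by the authors' estimate, so single members of the Mup, Cyp and Serpina families are less certain than the family sums.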
